A study of Mus musculus with 16 samples.

Results

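Smooth muscle contractile genes were followed in 10 mammary tumors of MMTV-PyMT mice. The set holds Acta2, Myh11, Cnn1, Myl9, Tagln, Actg2, Mylk, Lmod1, Smtn and Des, which is 10 of the 23609 genes in the table, and all 10 passed the filter on low values (a mean of 10 or more), as 21034 genes did. The genes were chosen by name with earlier results of these data in view: Myl9 stood among the lower genes of an earlier comparison of the same tumors. Their differences between genotypes are therefore given as a description without a test, and the tests below concern how they vary with markers of the cell types that can make them.

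All animals carried the polyoma middle T antigen (PyMT), driven in the mammary gland by the MMTV promoter. The gene trap animals were heterozygous (Resf1 +/-) for a lentiviral EGFP/Cre insertion in the first exon of Resf1 that truncates its message, on a C57BL/6 background crossed to FVB/MMTV-PyMT, and the wildtype animals were their PyMT-carrying littermates. The labels describe 16 primary tumors, 8 of each genotype, of which 5 wildtype and 5 gene trap tumors could be matched to a column of values and were analysed. The RNA was total RNA of tumor tissue, so fewer cells of a type and less RNA per cell cannot be told apart. The methods place the collection of these F1 tumors at a humane endpoint, and the labels give no age.

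The values are estimated read counts per gene that had been normalized between tumors before deposition, and the depth of each tumor is unknown. They summed to between 31995078 and 42153593 per tumor. Resf1 ranged from 3517 to 4487 in the wildtype and from 3066 to 4029 in the gene trap tumors, so the genotypes overlapped for the trapped gene (log2 difference -0.22, SE 0.09). Gene trap replicate 2 stood apart from all other tumors: it had a score of 91.8 on the first principal component (31.1% of variance), while the other 9 tumors had scores between -18.6 and -4.8. Values that rest on that tumor are given with and without it. Luminal epithelial markers were the most abundant of the epithelial lists, with sums of 82699 to 115304 per tumor. Markers of myoepithelium (4080 to 6830), mural cells (7308 to 9874) and fibroblasts (41249 to 124636) were present in every tumor.

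Smooth muscle contracts when calcium and calmodulin activate myosin light chain kinase, which phosphorylates the regulatory light chain so that smooth muscle myosin can pull on actin filaments. Calponin and transgelin bind those filaments, leiomodin nucleates them, and desmin ties them to the rest of the cell. In the mammary gland the same apparatus is used by myoepithelial cells, which squeeze milk from the alveoli in response to oxytocin. It is used as well by vascular smooth muscle and pericytes, together called mural cells, and by fibroblasts that have become myofibroblasts. The markers that stand for these sources are Krt14, a basal keratin of myoepithelium, Rgs5, a G protein regulator of pericytes, and Pdgfra, a growth factor receptor of fibroblasts.

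Many contractile genes carry CArG boxes, the letters CC, 6 A or T bases and GG, which the serum response factor binds. Promoters (250 bases before to 50 after the start, RefSeq, build GRCm38.p6) were held for 7 of the 10 genes; Myh11, Tagln and Actg2 had none. A box with all 6 inner bases A or T, on either strand, was found in 1 of the 7, against 1.81% of 27025 genes, and a box with at most 1 C or G among the inner bases in 2 of the 7, against 11.3%. These 2 genes, Acta2 and Myl9, each held 2 such boxes, as did 0.932% of all genes. Their stretches upstream of the start are shown because they are the promoters of the set in which the letters occur, with the boxes in capitals. The Acta2 stretch is chr19:34255374-34255483 on the minus strand, with boxes that begin 84 and 34 bases before the start. The Myl9 stretch is chr2:156775284-156775463 on the plus strand, with boxes that begin 161 and 99 bases before the start. A match of letters is a description of the window and was not tested as a binding site.
Acta2: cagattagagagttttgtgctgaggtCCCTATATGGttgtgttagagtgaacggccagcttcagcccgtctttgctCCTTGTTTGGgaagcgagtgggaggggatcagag
Myl9: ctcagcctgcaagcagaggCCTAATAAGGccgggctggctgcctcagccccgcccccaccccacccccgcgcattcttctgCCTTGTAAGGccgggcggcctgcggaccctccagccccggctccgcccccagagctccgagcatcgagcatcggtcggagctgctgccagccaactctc

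Per kilobase of annotated exon, the mean normalized value over the 10 tumors was highest for Acta2 (853.6), followed by Myl9 (594.3), Tagln (480.9) and Smtn (330.4). Des (128.0), Myh11 (127.2), Lmod1 (98.7), Cnn1 (90.9), Mylk (83.2) and Actg2 (51.6) were lower. The spread between tumors was widest for Des, with a coefficient of variation of 66.3%, and Actg2 (55.0%), and narrowest for Smtn (16.1%) and Lmod1 (19.6%).

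Between genotypes, 9 of the 10 genes had a lower mean log2 value in the gene trap tumors, and Smtn had a higher one. The median log2 difference of the set was -0.35, against 0.0 over all tested genes, of which 48.6% were lower. Of the 10 genes, 6 were lower by at least 1.25-fold (Acta2, Myh11, Cnn1, Myl9, Actg2 and Mylk), against 7.64% of all tested genes. Because the genes were chosen with this contrast in view, nothing is read from the last share. None of the 10 separated the genotypes completely, as 0.528% of all tested genes did. Across all genes, limma called 0 of 21034 between genotypes (0%) at an adjusted p under 0.05, and 479 had an unadjusted p under 0.05.

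The count of genes lower by 1.25-fold rested on single tumors. It was 2 of 10 without wildtype replicate 4, 4 of 10 without wildtype replicate 2 or without gene trap replicate 4, and between 5 and 7 of 10 with any other tumor left out. Without gene trap replicate 2 it was 7 of 10, with a median log2 difference of -0.38, beside 4.04% of all tested genes.

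Acta2 encodes smooth muscle alpha actin, the standard marker of myoepithelium, vessel wall and myofibroblasts. Its normalized values were 1891, 2385, 1619, 3155 and 1739 in wildtype replicates 1 to 5 and 1873, 1592, 2032, 1271 and 1187 in gene trap replicates 1 to 5. Wildtype replicates 4 and 2 were the highest and gene trap replicates 4 and 5 the lowest, while the middle tumors of both genotypes overlapped. The mean was 2158 ± 629 (SD, n = 5) in wildtype and 1591 ± 367 (n = 5) in gene trap tumors, a log2 difference of -0.43 (SE 0.20).

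Actg2, the gamma actin of visceral smooth muscle, was the least abundant member, with a similar order of tumors. It had 56.8, 117.5, 52.8, 188.4 and 79.0 in the wildtype tumors and 77.1, 64.7, 82.5, 36.0 and 49.2 in the gene trap tumors. Wildtype replicate 4 again stood highest, and the difference of -0.56 (SE 0.35) was -0.29 without it. Acta2 and Actg2 had no 50-base stretch of transcript in common, and Acta2 had 7 of 2146 such stretches in common with the cytoplasmic actin Actg1.

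Myh11 encodes the smooth muscle myosin heavy chain, a stricter marker of contractile cells than Acta2. It had 1203, 1513, 909, 1220 and 981 in the wildtype tumors and 1049, 758, 1072, 533 and 427 in the gene trap tumors. All 5 gene trap tumors lay below the wildtype median, 3 of them below the lowest wildtype tumor, and 2 lay inside the wildtype range. The log2 difference of -0.67 (SE 0.25) was the largest of the set and ran from -0.81 to -0.48 with 1 tumor left out.

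The light chain and its kinase varied less. Myl9, the regulatory light chain, had 698, 948, 585, 984 and 696 in the wildtype tumors and 730, 613, 651, 455 and 546 in the gene trap tumors. Mylk, the myosin light chain kinase, had 1006, 1170, 878, 1162 and 952 in the wildtype tumors and 864, 951, 1114, 575 and 701 in the gene trap tumors. For both genes the top wildtype tumors were replicates 2 and 4 and the bottom gene trap tumors replicates 4 and 5. The log2 differences were -0.37 (SE 0.16) for Myl9 and -0.33 (SE 0.16) for Mylk.

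The actin-binding proteins Cnn1 (calponin 1) and Tagln (transgelin, also called SM22) were lowest in the same pair of gene trap tumors. Cnn1 had 302, 364, 210, 391 and 215 in the wildtype tumors and 240, 301, 247, 112 and 105 in the gene trap tumors. Gene trap replicates 1 to 3 lay inside the wildtype range and replicates 4 and 5 below it, and without replicate 5 the log2 difference moved from -0.64 (SE 0.31) to -0.44. Tagln had 1005, 1261, 774, 1095 and 1096 in the wildtype tumors and 1131, 1029, 962, 593 and 616 in the gene trap tumors. Here too gene trap replicates 1 to 3 overlapped the wildtype tumors, and the difference of -0.30 (SE 0.19) was -0.18 without gene trap replicate 4. In the annotation 62.4% of the exon bases of Tagln overlap the antisense gene Gm48529, which had a mean value of 143.9. The sources used here do not state how strand was handled in counting, so reads of the 2 genes cannot be told apart.

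**Figure D1:**
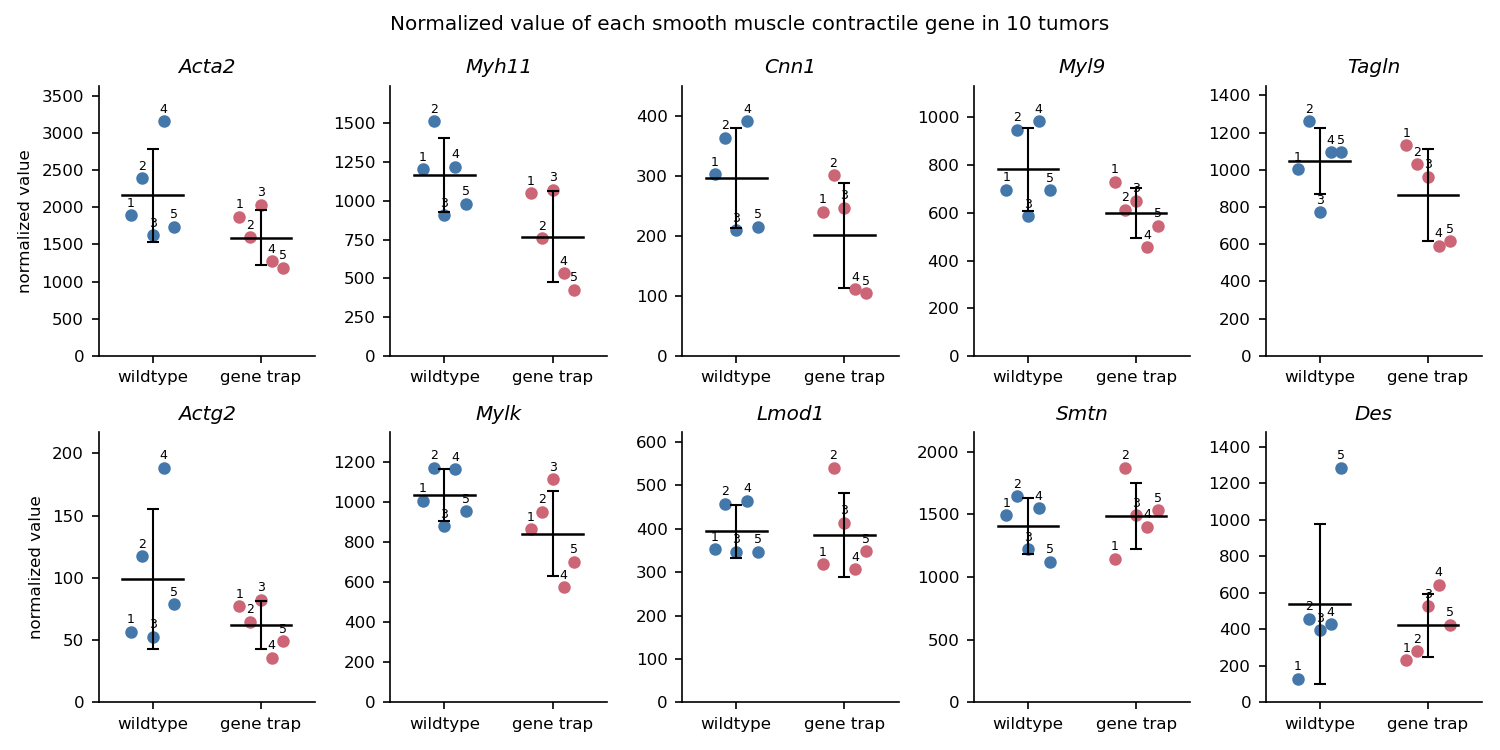
Normalized value (y axis, from 0) of each contractile gene in 5 wildtype (blue) and 5 gene trap (red) tumors; small numbers are replicate numbers, the horizontal line is the group mean and the bar its SD. Gene trap replicates 4 and 5 are lowest in 7 genes from Acta2 (1271 and 1187) to Mylk (575 and 701), the genotypes overlap in all 10, and Des in wildtype replicate 5 stands at 1285.

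Lmod1, Smtn and Des did not share that order. Lmod1, leiomodin 1, had 353, 458, 347, 465 and 347 in the wildtype tumors and 318, 541, 415, 307 and 348 in the gene trap tumors. Smtn, smoothelin, marks fully contractile smooth muscle, although its gene is also expressed outside muscle. It had 1492, 1643, 1223, 1547 and 1122 in the wildtype tumors and 1145, 1871, 1492, 1400 and 1534 in the gene trap tumors. Both were highest in gene trap replicate 2. Their log2 differences of -0.05 (SE 0.16) and 0.08 (SE 0.14) changed sign with some single tumors left out, and were -0.18 and -0.01 without gene trap replicate 2. For Smtn, 16.3% of exon bases overlap Gm11946 on the opposite strand.

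Des, desmin, is the intermediate filament of smooth, skeletal and cardiac muscle. It had 130, 459, 397, 427 and 1285 in the wildtype tumors and 230, 282, 526, 644 and 426 in the gene trap tumors. The highest and the lowest tumor were both wildtype. The log2 difference of -0.09 (SE 0.49) became 0.31 without wildtype replicate 5 and -0.52 without wildtype replicate 1.

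**Figure D2:**
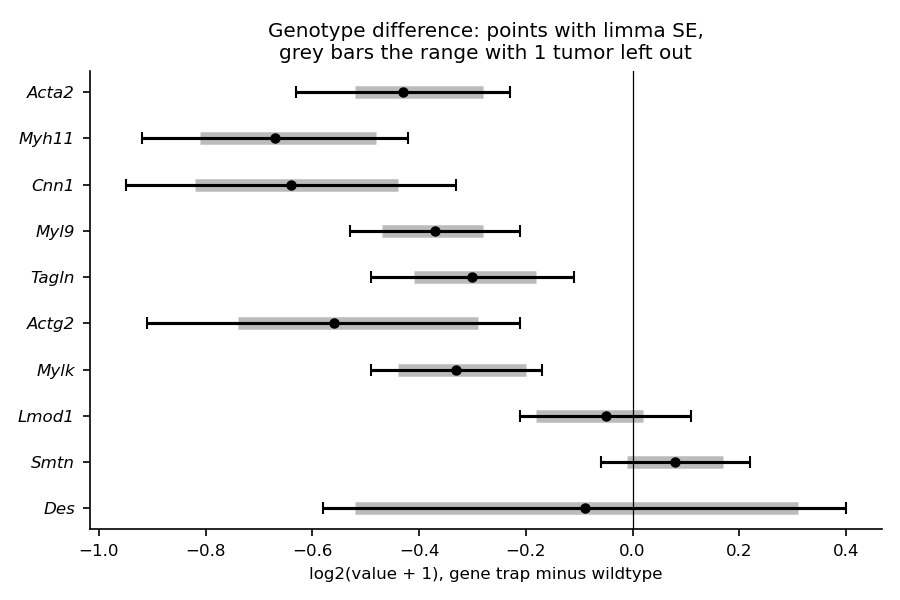
Log2(value + 1) of gene trap minus wildtype tumors for each contractile gene (n = 5 and 5); points with bars are the difference and its limma SE, and grey bands the range with each tumor left out in turn. The differences run from -0.67 for Myh11 to 0.08 for Smtn, and only the bands of Lmod1, Smtn and Des cross 0.

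The genes of the set did not vary as one unit. Over the 10 tumors, Acta2, Myh11, Cnn1, Myl9, Tagln, Actg2 and Mylk correlated with each other in all 21 pairs, with Pearson r of log2 values between 0.72 and 0.94 and a median of 0.86. The range was 0.71 to 0.97 without gene trap replicate 2, and 0.63 to 0.93 for deviations from the genotype means. These 7 genes were grouped from this pattern, so it is a description and no test applies to it. The highest value was that of Myl9 with Actg2 (0.94), the light chain with the visceral actin. Smtn correlated with the 7 between -0.05 and 0.26, and Des between -0.31 and 0.07; without gene trap replicate 2 these ranges were -0.06 to 0.26 and -0.28 to 0.06. The place of Lmod1 depended on that tumor. Its r with the 7 lay between 0.35 and 0.67 over all 10 tumors and between 0.55 and 0.85 without gene trap replicate 2, while its r with Smtn was 0.77 with and 0.64 without it.

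Correlations across the tumors were then set against the 3 source markers, with 30 pairs of a contractile gene and a marker. Permutation p-values (100000 resamples, two-sided) describe single pairs, and the adjusted p is that of the slope in a limma fit across all tested genes with genotype as a second term. Both kinds of p-value take the tumor as the unit. The permutation shuffles all 10 tumors without regard to genotype, so a difference between genotypes can enter it. In those fits 0 of 21033 genes (0%) were called with Krt14, 5 (0.0238%) with Rgs5 and 44 (0.209%) with Pdgfra, and none of the 10 contractile genes was called with any of them. At an unadjusted p under 0.05 the counts were 1727, 3832 and 2462 of all genes, and 1, 2 and 1 of the 10.

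Krt14 had 1519, 2343, 1879, 2307 and 1970 in the wildtype tumors and 1481, 2117, 1563, 1460 and 2034 in the gene trap tumors. All 10 contractile genes correlated positively with it, from 0.16 for Myh11 to 0.68 for Lmod1, while 48.2% of all tested genes did. As 7 of the 10 correlated with each other at 0.72 to 0.94, these are not 10 separate observations. Among the 7 that moved together the highest r was 0.58, for Actg2 (permutation p = 0.0789, n = 10). Within genotypes the r of the 7 fell between -0.14 and 0.48. For Lmod1, r was 0.68 (permutation p = 0.0332) and Spearman's rho 0.76 (p = 0.0148). Without the pair of tumors farthest from the median of Krt14, gene trap replicates 4 and 1, the r of Lmod1 was 0.50 (exact permutation p = 0.214), with 1 tumor left out it was 0.61 to 0.77, and for deviations from the genotype means 0.71. Its slope in limma was 0.78 (SE 0.29, adjusted p = 0.600).

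Rgs5 had 1963, 1377, 1700, 1345 and 3446 in the wildtype tumors and 2739, 1186, 1984, 1731 and 1818 in the gene trap tumors. The 7 genes had r between -0.27 and 0.07 with it, and their smallest permutation p was 0.451 (n = 10). Wildtype replicate 5 and gene trap replicate 1, highest for Rgs5, were in the middle for Acta2. Smtn ran the other way, with r = -0.85 (permutation p = 0.00175), rho = -0.78 (p = 0.0103) and r = -0.80 without gene trap replicate 2. Without the pair of tumors farthest from the Rgs5 median, wildtype replicate 5 and gene trap replicate 1, its r was -0.63 (exact permutation p = 0.0928), and the limma slope was -0.43 (SE 0.10, adjusted p = 0.0843). Lmod1 had r = -0.69 (permutation p = 0.0255), rho = -0.65 (p = 0.0485) and, without the farthest pair, r = -0.78 (exact permutation p = 0.0272), with an adjusted p of 0.200 in limma. Gene trap replicate 2 was lowest for Rgs5 and highest for Lmod1, and without it r of Lmod1 was -0.57. With replicate number as a block it was -0.36.

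Pdgfra had 1477, 1243, 1523, 902 and 2009 in the wildtype tumors and 2088, 1276, 1431, 1277 and 1368 in the gene trap tumors. The 7 genes had r between -0.37 and 0.11 with it (smallest permutation p = 0.288, n = 10). Smtn had r = -0.74 (permutation p = 0.0134), rho = -0.87 (p = 0.002) and, without the farthest pair of tumors (wildtype replicate 4 and gene trap replicate 1), r = -0.81 (exact permutation p = 0.0115), but an adjusted p of 0.222 in limma. Rgs5 and Pdgfra themselves correlated at 0.86 over the 10 tumors, so relations to the mural and to the fibroblast marker cannot be told apart here. With all 3 markers in 1 limma fit, 0 genes were called for any of them; 500 genes for Krt14, 1414 for Rgs5 and 1020 for Pdgfra had an unadjusted p under 0.05.

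**Figure D3:**
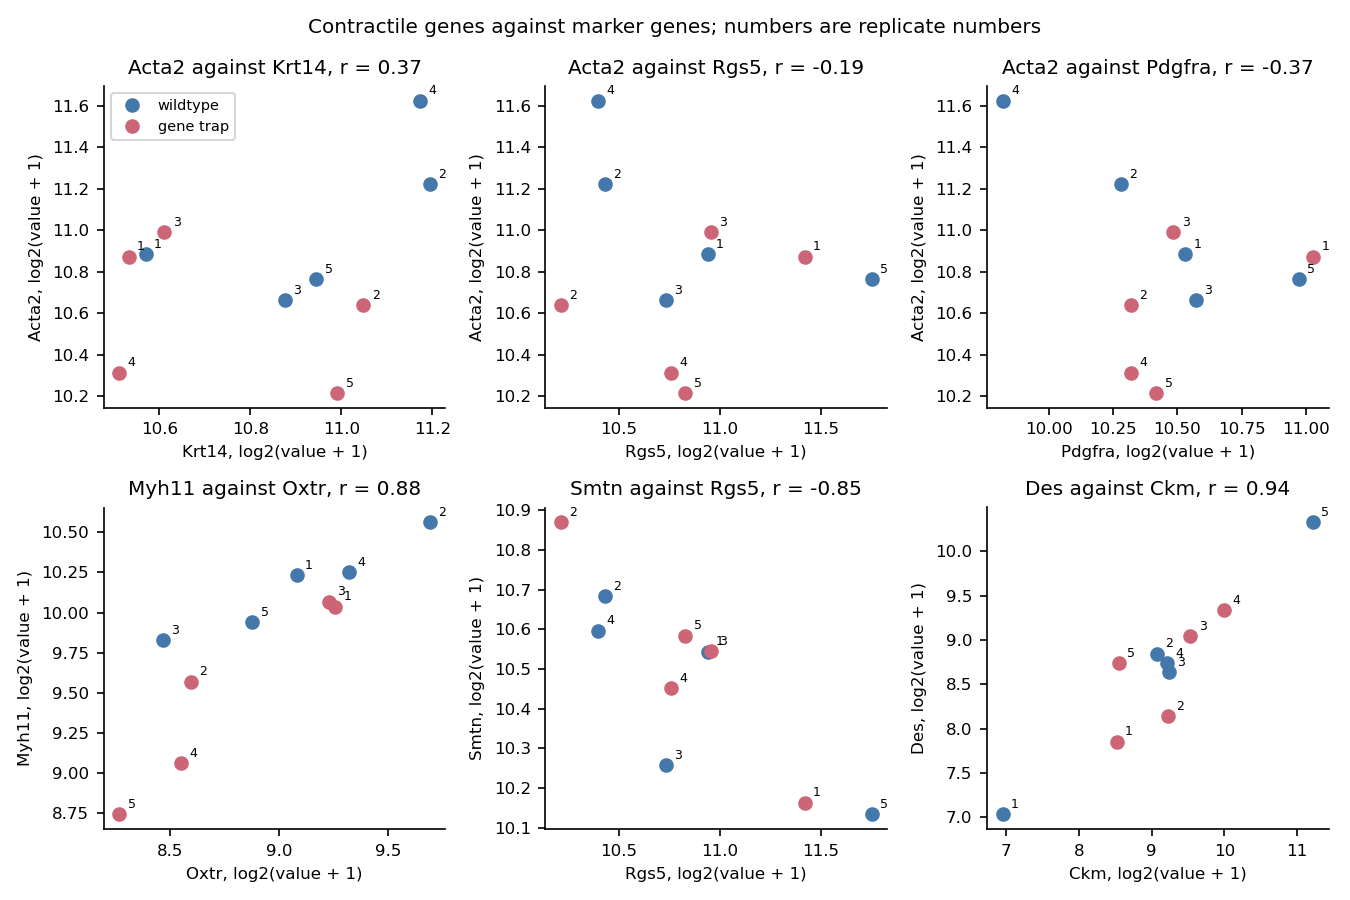
Log2(value + 1) of a contractile gene (y axis) against a marker gene (x axis) in 5 wildtype (blue) and 5 gene trap (red) tumors, numbered by replicate; r is Pearson's. Acta2 has r of 0.37 with Krt14, -0.19 with Rgs5 and -0.37 with Pdgfra, whereas Myh11 with Oxtr (0.88), Smtn with Rgs5 (-0.85) and Des with Ckm (0.94) form bands.

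Single markers are narrow, so each listed marker of a cell type was set against the 7 genes by its mean r with them. Over the other 21024 tested genes this mean r had a median of -0.02 and lay between -0.46 and 0.47 from the 5th to the 95th percentile. Of the 9 myoepithelial and basal markers 7 had a positive value, from -0.26 (Dsg3) to 0.81 (Oxtr), with a median of 0.20. Of the 12 tested mural markers 5 were positive, with a median of -0.08 and a highest value of 0.60 for Mcam. By the mean z score of the mural list, r with the 7 genes was -0.07 to 0.27 over all tumors. It was 0.56 to 0.80 without wildtype replicate 4 and gene trap replicate 2, the pair farthest from the median of the score. Without the same pair the endothelial score had 0.63 to 0.82 (-0.10 to 0.29 over all tumors). Without its own farthest pair the myoepithelial score had 0.11 to 0.53 (0.22 to 0.57 over all tumors). Of the 11 fibroblast markers 2 were positive, with a median of -0.10, and of the 7 activated fibroblast markers 2, with a median of -0.15. By score, the fibroblast list had -0.25 to 0.19 with the 7 genes over all tumors, and -0.61 to -0.15 without its farthest pair. The activated fibroblast list had -0.23 to 0.16 and, without the same pair, -0.55 to -0.28. Of the 2 measured cardiac muscle markers, Tnnt2 had 0.52 and Tnni3 -0.14. Positive values were also had by 6 of 7 leukocyte markers (median 0.10), 3 of 4 adipocyte (0.10), 6 of 9 endothelial (0.09) and 4 of 8 luminal markers (-0.02). Of the 12 skeletal muscle markers 1 was positive (median -0.09).

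The myoepithelial list was not of one kind. Its keratins ran from 0.39 for Krt14 through 0.10 for Krt17 to -0.06 for Krt5, and Trp63, the transcription factor of basal cells, had 0.20. Oxtr, the oxytocin receptor through which myoepithelium is made to contract, and Cdh3, P-cadherin (0.52), were the highest. Oxtr had 540, 825, 353, 639 and 469 in the wildtype tumors and 611, 386, 599, 375 and 308 in the gene trap tumors, which is highest in wildtype replicates 2 and 4 and lowest in gene trap replicate 5. Its r with the 7 genes was between 0.75 (Mylk) and 0.88 (Myh11), and 0.11 with Krt14. Oxtr was singled out after its values were seen, so these r are a description. A limma fit on Oxtr across all genes called 0 of 21033 (0%), with 998 at an unadjusted p under 0.05; its slope for Myh11 was 0.93 (SE 0.16, adjusted p = 0.286). Mcam, which also correlated with Oxtr (0.80), is found on endothelium and on myoepithelium as well as on mural cells.

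**Figure D4:**
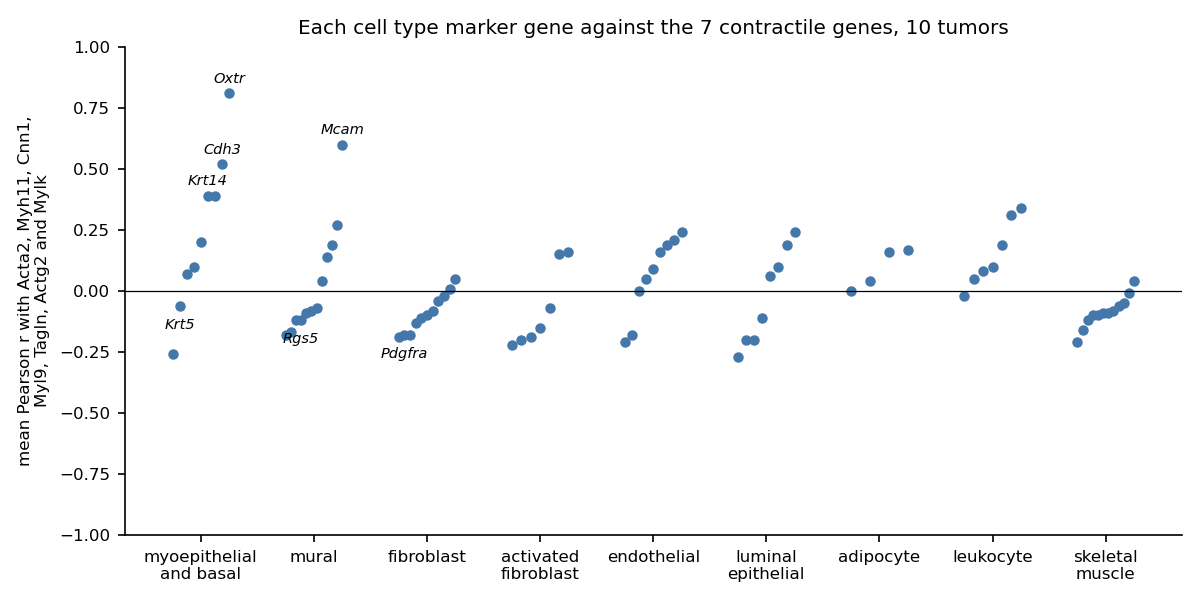
Mean Pearson r over 10 tumors of each cell type marker gene (points, grouped by list on the x axis) with Acta2, Myh11, Cnn1, Myl9, Tagln, Actg2 and Mylk (y axis). Oxtr (0.81), Mcam (0.60) and Cdh3 (0.52) are the highest points of these lists, and Rgs5 (-0.12) and Pdgfra (-0.18) lie just below 0.

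Of the 9 myoepithelial markers 8 had a lower mean in the gene trap tumors and Cdh3 a higher one (0.03), with a median log2 difference of -0.31, and the summed value of the list overlapped between genotypes, from 5359 to 6830 in the wildtype and from 4080 to 6062 in the gene trap tumors. Of the mural list 5 of 12 were lower, with a median of 0.04, and of the fibroblast list 1 of 11, with a median of 0.11. Adipocyte markers were lower in 4 of 4, with a median of -0.36, leukocyte markers in 6 of 7 (median -0.10) and endothelial markers in 6 of 9 (median -0.06). No gene of these lists was called in the genotype fit, and the part of any of these cell types in the lower contractile values was not tested.

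Des varied with skeletal muscle genes. Ckm, the muscle creatine kinase, had 123, 539, 604, 594 and 2387 in the wildtype tumors and 365, 599, 741, 1023 and 373 in the gene trap tumors, with the same highest and lowest tumor as Des. All 12 measured skeletal muscle markers had r between 0.85 and 0.96 with Des, and their summed value ran from 5822 in wildtype replicate 1 to 82370 in wildtype replicate 5. Des had r = 0.95 with the mean z score of that list (permutation p = 0.00041), rho = 0.87 (p = 0.00204) and, without those 2 tumors, r = 0.74 (exact permutation p = 0.0355). In a limma fit on this score, added after the data were seen, 41 of 21022 genes (0.195%) were called, 711 had an unadjusted p under 0.05, and Des was the 1 contractile gene called (slope 0.86 per unit of score, SE 0.10, adjusted p = 0.00328). The call was lost without wildtype replicate 1 (slope 0.64, adjusted p = 0.147) or wildtype replicate 5 (slope 0.70, adjusted p = 0.192). The other 9 contractile genes had r between -0.38 and 0.08 with the score. Of 6 cardiac muscle markers 2 were measured, and Des had r = -0.02 with their score.

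**Figure D5:**
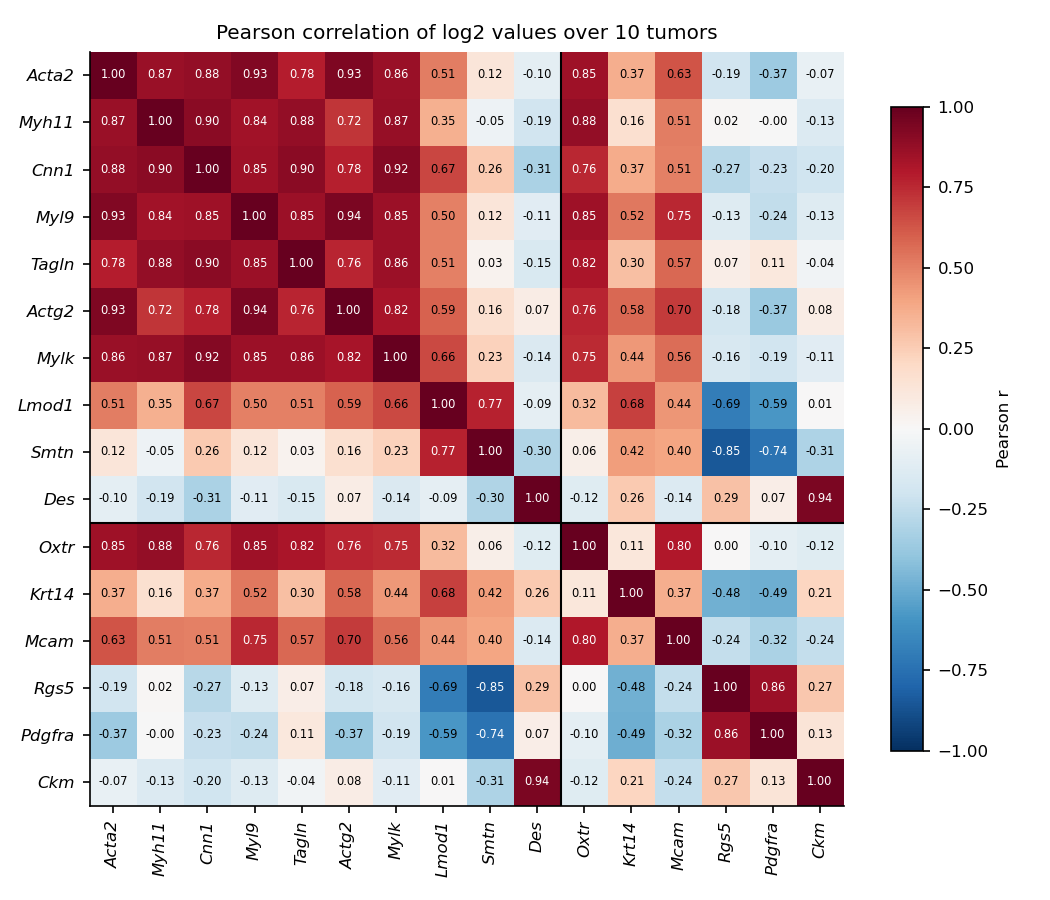
Pearson r of log2 values over 10 tumors between the 10 contractile genes and 6 marker genes (red positive, blue negative, colour scale from -1 to 1). The block from Acta2 to Mylk (0.72 to 0.94) extends to Oxtr, Lmod1 has 0.77 with Smtn (0.64 without gene trap replicate 2, when it has 0.85 with Actg2), and Des has 0.94 with Ckm.

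Genes of the wider contractile pathway differed little between genotypes, and none of them was called. In the thin filament list 12 of 15 genes were lower, with a median log2 difference of -0.05. Its largest difference was that of Tpm2, a tropomyosin that stabilizes actin filaments (-0.41), followed by Flna, the crosslinker filamin A (-0.16). Tpm2 ranged from 1091 to 4481.5 in the wildtype tumors, with the top value in wildtype replicate 5, and from 1110 to 1906.5 in the gene trap tumors. In the scaffold and adhesion list 16 of 18 were lower (median -0.10), with Pgm5 (-0.31) and Synpo2 (-0.30) as the largest. Of the regulators of light chain phosphorylation 8 of 10 were lower (median -0.05), with Prkg1, the cGMP-dependent kinase that relaxes smooth muscle (-0.16), and Rock2, which inhibits the light chain phosphatase (-0.13). Of the calcium handling genes 3 of 8 were lower (median 0.08), among them Casq2 (-0.42), while Kcnma1, a potassium channel, was at 0.18. Casq2 was highest in wildtype replicate 5, at 69.1, against a median of 25.5 over all tumors. Ryr2 and Ppp1r14a were under the minimum mean.

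The transcriptional regulators of the set had 8 of 13 lower and a median log2 difference of -0.02. The largest differences were those of Tgfb1 (0.30) and the sparsely measured Gata6 (0.26). Their mean r with the 7 genes was positive in 12 of 13, with a median of 0.39. The thin filament list had the same median, with 13 of 15 positive. Tead1, a transcription factor of the Hippo pathway, was the highest at 0.76, and Srf, which binds CArG boxes such as those shown for Acta2 and Myl9, had 0.44, below the 95th percentile of all genes. Its cofactors Mrtfa and Mrtfb had 0.54 and 0.46. Myocd, the cofactor most specific to smooth muscle, was not analysed here.

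Of 14113 tested genes with a mean of at least 100, the 10 with the highest mean r over all 10 contractile genes were Nfasc (0.67), Srgn (0.65), Phactr4 (0.64), Per1 (0.63), Sox6 (0.63), Vwa1 (0.62), Fbln5 (0.62), Fmod (0.62), Cmip (0.61) and Sema3d (0.61). Neighbours in this order differ by 0.02 or less and were not separated. Without gene trap replicate 2 their values were 0.65 to 0.71, and Vwa1 and Fbln5 came first. For deviations from the genotype means their values were 0.57 to 0.67. All 10 had lower mean values in the gene trap tumors, from -0.54 for Sema3d to -0.09 for Phactr4, while 48.6% of all tested genes were lower. The ranking used values with the genotype difference left in, and 9 of the 10 contractile genes were lower in gene trap tumors. Nothing is therefore read from the shared direction.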

How the data were processed

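What the authors deposited is a signal per gene and tumor: estimated counts, already scaled by the median ratio method. The submitters' processing notes name Partek, STAR 2.7.8a, DESeq2 and mm39, with no role or order. Columns were matched to tumors by name, and 6 that matched no label were not used. The table held 0 zeros and fractional values, so whole reads could not be recovered, no count test was run and no interval that needs depth is given. Values were taken as log2(value + 1), and the 21034 genes that averaged 10 or more were fitted with limma 3.58.1 (R 4.3.3) with a variance trend and Benjamini-Hochberg adjustment. A score is the mean z of a list. Members and lists were chosen with earlier results of these data known. The named genes are the 10 members, Resf1, Krt14, Rgs5, Pdgfra, the 2 largest differences of each pathway list and the 10 genes most like the set; others were named after their values were seen. The fits were tested on simulated data. The labels do not tie animals that share a number to each other, and the deviations of such pairs correlated between -0.16 and 0.15, so tumors were not paired. Alternatives were leaving out each tumor, a replicate block, pseudocounts, filters, quantile normalization, no variance trend, no genotype term and list scores. Python 3.11.15, scipy 1.17.1 and matplotlib 3.10.9 were used.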

Additional observations from a re-analysis of the deposited data

Results flagged for a closer look

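Of 58 groups of 5 tumors, each a contractile gene, marker gene or list score in 1 genotype, 3 had a tumor far from the other 4 by Dixon's criterion, where chance gives about 1 in 20. For genes the criterion was applied to values before the log2 step. Des was at 1285 in wildtype replicate 5, with the other wildtype tumors between 129.9 and 459.3. As log2 values these are 10.33 and 7.03 to 8.85, and the criterion was not applied to them. Pdgfra was at 2088 in gene trap replicate 1, with the other gene trap tumors between 1276 and 1431. The score of the fibroblast list was 1.749 in the same tumor, against -0.608 to 0.009 in the others.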

How the results depend on the processing

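The genotype fit and the Krt14 fit called 0 genes under every alternative run, and none of the 10 contractile genes was called with Krt14, Rgs5 or Pdgfra, alone or in the joint fit. The number of genes called with Rgs5, 5 in the report, was 82 without a genotype term, 0 with quantile normalization, 0 with no variance trend, 0 with the score of the mural list and 0 with the replicate block, and ran from 0 to 167 with 1 tumor left out (167 without wildtype replicate 5, 27 without gene trap replicate 2). For Pdgfra, 44 became 67 without a genotype term, 4 with no variance trend, 22 with the score of the fibroblast list and 0 with the replicate block, and ran from 1 (without wildtype replicate 5) to 110 (without gene trap replicate 2). The causes were not tested. Of 420 alternative values with a p of the 30 single correlations, 12 lost and 5 gained a permutation p under 0.05, and 0 of the correlations with p under 0.05 changed sign. The replicate block, for which no p was computed, changed the sign of 7 of the 30, none of them among the 4 with p under 0.05 (Des with Krt14 went from 0.26 to -0.53). The log2 differences of Acta2, Myh11, Cnn1, Myl9, Tagln, Actg2 and Mylk kept their sign under all 14 alternatives, while Lmod1 changed sign in 4, Smtn in 2 and Des in 3. With values scaled to the luminal epithelial markers the median of all genes moved to 0.01. With 5 tumors a group and unknown depth, no limit of detection was computed, and differences larger than the spread between tumors could also be missed. The log2 difference of Resf1 (-0.22) was larger than its pooled SD (0.15), and the fit did not call it.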

Other observations

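Among the genes of the wider contractile pathway, several followed Des rather than Acta2, and they were picked out after their values were seen. Hspb6, a small heat shock protein of muscle, had r = 0.93 with Des over the 10 tumors, Fhl1, a LIM protein of striated muscle, 0.91, Synm, an intermediate filament protein that pairs with desmin, 0.90, and Tpm2 0.86. Each of these genes was lowest in wildtype replicate 1 and highest in wildtype replicate 5, as Des was, and r without those tumors is not given here. The mean r of Hspb6, Fhl1, Synm and Tpm2 with Acta2, Myh11, Cnn1, Myl9, Tagln, Actg2 and Mylk was -0.05, -0.13, 0.02 and 0.22. Tgfb1i1 and Pgm5, adhesion proteins of smooth muscle, had 0.70 with those 7 genes, and -0.11 and -0.37 with Des.

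Smtn had a negative r with most markers outside the epithelium. All 11 fibroblast markers and all 7 activated fibroblast markers had a negative r with it, with medians of -0.71 and -0.64 and a lowest value of -0.98 for Fap, a protease of activated fibroblasts. The same held for 12 of 12 skeletal muscle, 7 of 7 leukocyte, 4 of 4 adipocyte, 8 of 9 endothelial (median -0.58) and 9 of 12 mural markers. The mural values ran from -0.85 for Rgs5 to 0.83 for Notch3. The share of all tested genes with a negative r with Smtn is not given here. Of 8 luminal epithelial markers 7 had a positive r with Smtn, with a median of 0.57 and values of 0.84 for Cldn3 and 0.82 for Cldn7. Smtn, Cldn3 and Cldn7 were each highest in gene trap replicate 2. Without that tumor, r of Smtn with the luminal score went from 0.64 to 0.53, with the mural score from -0.48 to -0.28 and with the endothelial score from -0.55 to -0.42. With the fibroblast score it went from -0.73 to -0.90, and with the activated fibroblast score it stayed at -0.78. Both fibroblast relations rested on gene trap replicate 1 and wildtype replicate 5, the pair farthest from the median of either score. Without that pair r was -0.34 and -0.39. Without the farthest pair of each other score, r of Smtn was -0.11 (mural), -0.32 (endothelial) and 0.68 (luminal). These points share the same 10 tumors, and no p is given for them.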
